A study of Homo sapiens with 6 samples.

Results

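The WNT feedback inhibitors and intestinal stem cell markers examined here are 10 genes out of the 60666 listed for each library, taken by their symbols. They are LGR5, ASCL2, PROM1 and LRIG1, used as markers of stem cells of the intestinal crypt, RNF43, ZNRF3, AXIN2, NKD1 and NOTUM, which encode inhibitors of WNT signalling, and SP5, a transcription factor gene induced by it. RNA was sequenced from 3 libraries of HCT116 cells, a human colorectal carcinoma line of wild-type DNMT3B genotype, and from 3 libraries of DNMT3B KO cells, a derivative of the same line in which the de novo DNA methyltransferase gene DNMT3B was knocked out. Neither line was treated. The knockout is 1 derived line, and nothing in the sources used here says that its libraries were grown as separate cultures, so a p-value reflects the spread among these libraries and nothing wider.

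WNT ligands bind Frizzled and LRP receptors at the cell surface, which stops a cytoplasmic destruction complex from degrading β-catenin, and stabilised β-catenin then activates target genes with transcription factors of the TCF/LEF family. Several of these targets encode inhibitors that act back on the pathway at successive levels. In the intestinal crypt, WNT signalling maintains stem cells at the crypt base, and in colorectal cancer the pathway is usually activated by mutation, in HCT116 cells through a mutation of the β-catenin gene CTNNB1.

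Estimated counts summed to between 55436267 and 68274783 per library. Levels are normalised CPM, the counts of a gene relative to the TMM-scaled library total, with the SD over the 3 libraries of a line, and changes are those of DNMT3B KO relative to HCT116 cells. The quasi-likelihood test of edgeR was applied to 16959 genes that passed a filter on low counts, and a gene is said to have risen or fallen at an adjusted p under 0.05. Of all tested genes, 12.9% rose and 15.1% fell (2196 and 2565 genes, or 2834 and 2090 with upper-quartile scaling), and all libraries of one line lay above those of the other for 45.9%, being lower in DNMT3B KO for 22.6% and higher for 23.3%. DNMT3B itself fell from 36.0 ± 5.15 to 2.75 ± 0.182 CPM (SD, n = 3). Replicates correlated at 0.975 to 0.987 in HCT116 and at 0.990 to 0.991 in DNMT3B KO cells across genes, which are not independent replicates.

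The members split by direction and by size. Of the 10 genes, 2 did not pass the filter on low counts, 3 fell (PROM1, RNF43 and LRIG1), 2 rose (NOTUM and SP5) and 3 did not pass the test (ZNRF3, NKD1 and AXIN2). The 3 genes that fell did so by 20.0-fold to 205-fold, and 1.50% of all tested genes fell by 16-fold or more. PROM1 and LRIG1 had a mean of 1 CPM or more in the parental line and below 0.5 CPM in the knockout, a pattern of 1.44% of all tested genes. RNF43, at 3.52 CPM in the knockout, did not have this pattern. The genes that rose changed by 1.98-fold and 2.52-fold. The libraries of the lines did not overlap for 7 of the 8 tested members, 3 lower and 4 higher in DNMT3B KO cells. Among all tested genes 45.9% did not overlap, 22.6% lower and 23.3% higher, while 15.1% fell and 12.9% rose. The median log2 fold change of the 8 tested members was 0.21, beside -0.00063 over all tested genes. With upper-quartile scaling, 3 members rose and 3 fell. PROM1 passed the filter through its HCT116 libraries, and 2 of its 3 DNMT3B KO libraries reached the filter's minimum. These counts describe the members and were given no test of their own. The members were chosen with earlier results of these data known, so the shares beside them are no measure of enrichment.

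**Figure D1:**
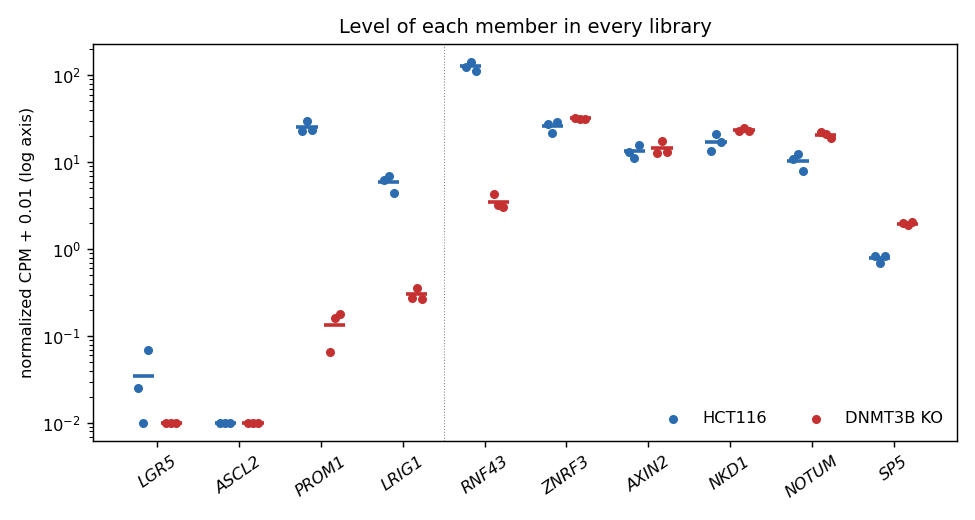
Normalised CPM plus 0.01, drawn on a log axis for the 10 members. Each point is 1 library (blue for HCT116, red for DNMT3B KO), short lines are means, and stem cell markers stand left of the dotted line. The red points of PROM1, LRIG1 and RNF43 lie far below the blue ones, those of NOTUM and SP5 lie above them, those of AXIN2 overlap them, and LGR5 and ASCL2 lie at or near 0 counts in both lines.

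The defining markers of crypt base stem cells were at or near 0 counts in both lines. LGR5, the receptor for R-spondin on chromosome 12 (71439798 to 71586310, hg38), had 1, 0 and 3 counts in HCT116 replicates 1, 2 and 3 and 0 counts in each DNMT3B KO library. ASCL2, a transcription factor gene of the same stem cells on chromosome 11 (2268498 to 2270588), had 0 counts in all 6 libraries. Where a library holds 0 counts, up to 3 remain possible, on average 0.0506 CPM for HCT116 and 0.0459 CPM for DNMT3B KO, and no fold is given for these genes because both lines lay at or under that level. These limits reflect counting error alone and take reads as independent, which reads lacking molecular identifiers need not be. A gene in bulk RNA can be low because few cells express it or because each cell holds little of its RNA, and these cannot be told apart here.

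PROM1 encodes prominin, a membrane protein of cell protrusions that is used as a marker of stem and tumour-initiating cells. It lies on the minus strand of chromosome 4 from 15963076 to 16084378. Its level was 22.9, 30.0 and 23.6 CPM in HCT116 replicates 1, 2 and 3 and 0.0555, 0.151 and 0.168 CPM in DNMT3B KO replicates 1, 2 and 3. The lines did not overlap, and the knockout libraries together held 24 counts against 4615 in HCT116. PROM1 fell 205-fold, with a log2 fold change of -7.68 ± 0.31 (SE; adjusted p = 2.4e-06 from edgeR), and it fell by more than any other member.

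LRIG1 encodes a membrane protein that restrains ERBB receptors and marks stem and progenitor cells of the crypt. It lies on the minus strand of chromosome 3 from 66378797 to 66501263. It was found at 6.16, 7.02 and 4.36 CPM in the HCT116 libraries, against 0.263, 0.352 and 0.259 CPM in DNMT3B KO cells, in order of replicate. All knockout libraries lay below all HCT116 libraries. The fall was 20.0-fold (log2 fold change -4.32 ± 0.29 as SE, adjusted p = 3.3e-05 from edgeR). Of 5 epithelial markers, 4 fell (KRT8, KRT18, KRT19 and CDH1), by 2.17-fold to 3.25-fold. Among all tested genes 15.1% fell, and the count of markers was not tested against that share. The summed level of the 5 markers was between 4365 and 5233 CPM in HCT116 and between 2102 and 2288 CPM in DNMT3B KO cells. EPCAM, named after its values were seen, had a log2 fold change of -0.09 ± 0.10 (SE; adjusted p = 0.56 from edgeR). The part of these markers in the changes of PROM1 and LRIG1 was not tested.

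The related ubiquitin ligases RNF43 and ZNRF3, which remove Frizzled receptors from the cell surface and are themselves cleared when R-spondin binds LGR receptors, diverged. RNF43 lies on the minus strand of chromosome 17 from 58353676 to 58417595. It was found at 124, 142 and 113 CPM in HCT116 replicates 1, 2 and 3 and at 4.30, 3.20 and 3.06 CPM in DNMT3B KO replicates 1, 2 and 3, with no overlap. It fell 35.8-fold, from 126 ± 14.6 to 3.52 ± 0.677 CPM (SD, n = 3), which is a log2 fold change of -5.16 ± 0.17 (SE; adjusted p = 1.0e-06 from edgeR).

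ZNRF3, on the plus strand of chromosome 22 from 28883572 to 29057488, was found at 27.5, 21.5 and 29.0 CPM in the HCT116 libraries, against 32.4, 31.8 and 31.5 CPM in DNMT3B KO cells. The knockout libraries all lay above those of HCT116, by little. The log2 fold change was 0.30 (95% interval 0.01 to 0.58, adjusted p = 0.11 from edgeR) and did not pass the test after adjustment, but it passed with upper-quartile scaling (adjusted p = 0.0353) and without HCT116 replicate 3 (adjusted p = 0.0475).

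Per kilobase of annotated exon, the level of RNF43 was 4.97, 7.30 and 4.31 times that of ZNRF3 in the HCT116 libraries and 0.146, 0.111 and 0.107 times that of ZNRF3 in the knockout libraries. By this measure of RNA, RNF43 stood above ZNRF3 in every HCT116 library and below it in every DNMT3B KO library. Protein of these ligases was not measured. The log2 ratio of the pair differed by -5.48 between the lines. A two-sided exact permutation test gave p = 0.10, the smallest p that 3 against 3 libraries allow. The fall of RNF43 beside a little changed ZNRF3 already fixed this outcome, so the test adds no support. Summed over both genes, the level was 22.0 to 25.5 CPM per kilobase in HCT116 and 4.99 to 5.32 CPM per kilobase in DNMT3B KO cells.

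**Figure D2:**
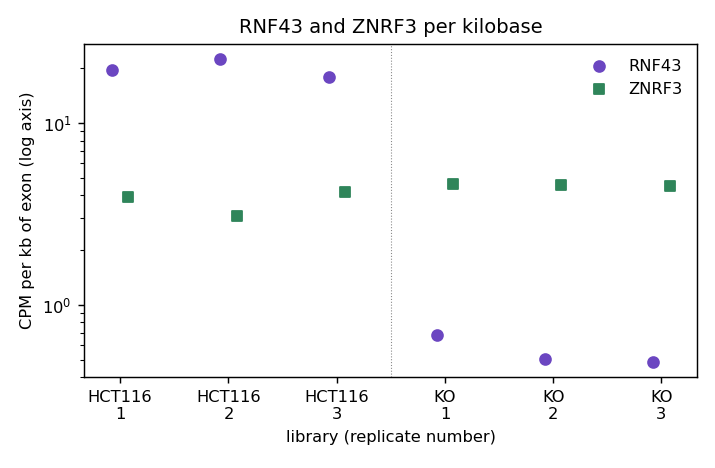
CPM per kilobase of annotated exon, on a log axis, for RNF43 (circles) and ZNRF3 (squares) in each of the 6 libraries. RNF43 lies above ZNRF3 in the 3 HCT116 libraries (17.9 to 22.4 against 3.08 to 4.15) and below it in the 3 DNMT3B KO libraries (0.484 to 0.679 against 4.51 to 4.64).

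AXIN2, the scaffold of the destruction complex whose induction is a common readout of the pathway, lies on chromosome 17 from 65528563 to 65561648. Its levels were 13.2, 11.1 and 15.6 CPM in the HCT116 libraries, against 12.9, 17.7 and 13.1 CPM in DNMT3B KO cells. The lines overlapped, and the log2 fold change was 0.13 (95% interval -0.29 to 0.55, adjusted p = 0.64 from edgeR). Without DNMT3B KO replicate 2, the highest library, the log2 fold change was -0.03.

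NKD1, which binds Dishevelled and inhibits it, lies on chromosome 16 from 50548396 to 50649249. It was found at 13.6, 21.1 and 16.9 CPM in the HCT116 libraries, against 22.8, 24.5 and 23.0 CPM in DNMT3B KO cells. The knockout libraries all lay above HCT116, of which replicate 2 came closest. The log2 fold change was 0.45 (95% interval 0.08 to 0.82, adjusted p = 0.072 from edgeR). It passed the test without HCT116 replicate 2 (log2 fold change 0.61, adjusted p = 0.00634) and with DESeq2 (adjusted p = 0.0435).

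NOTUM and SP5 rose. NOTUM encodes a secreted enzyme that inactivates WNT ligands by removing their lipid group, and lies on chromosome 17 from 81952507 to 81961840. Its levels were 10.8, 12.6 and 7.99 CPM in the HCT116 libraries, against 22.3, 21.0 and 18.9 CPM in DNMT3B KO cells, without overlap. This was an increase of 1.98-fold (log2 fold change 0.99 ± 0.18 as SE, adjusted p = 0.0044 from edgeR).

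SP5, a zinc finger transcription factor gene on chromosome 2 (170715337 to 170718078), had the lowest CPM in both lines among the 5 tested members that did not fall. It was found at 0.828, 0.675 and 0.833 CPM in the HCT116 libraries, against 1.97, 1.90 and 2.03 CPM in DNMT3B KO cells. All knockout libraries lay above all HCT116 libraries, and SP5 rose 2.52-fold (log2 fold change 1.33 ± 0.24 as SE, adjusted p = 0.0045 from edgeR). The calls of PROM1, LRIG1, RNF43, NOTUM and SP5 held under all 13 alternative settings, including the removal of each library in turn.

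**Figure D3:**
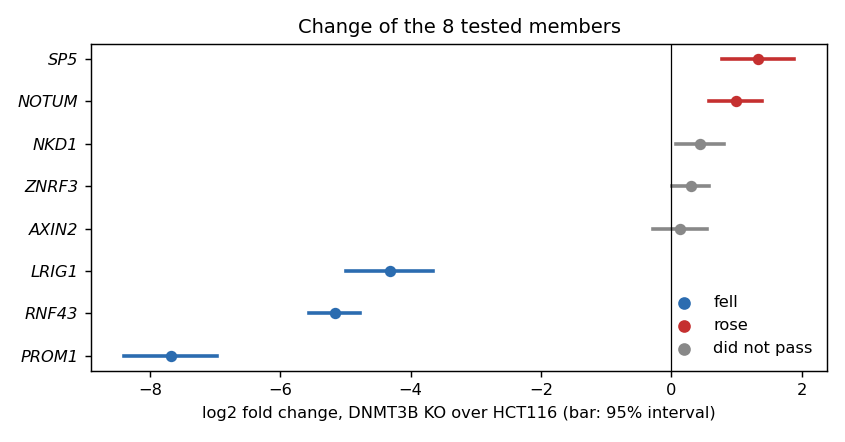
Log2 fold change of DNMT3B KO over HCT116 with its 95% interval for the 8 tested members, ordered by size and coloured by whether they fell, rose or did not pass the test. PROM1, RNF43 and LRIG1 lie between -7.68 and -4.32, and the others between 0.13 and 1.33.

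The order of the members by level therefore differed between the lines. Per kilobase of annotated exon, RNF43 led in HCT116 at 20.0 ± 2.31 CPM per kilobase (SD, n = 3), followed by ZNRF3, NOTUM and PROM1 at 3.72, 3.58 and 3.41, whose libraries overlapped from one gene to the next. AXIN2 followed at 2.56, and then NKD1 and LRIG1, which overlapped at 0.990 and 0.830, and SP5 at 0.375 CPM per kilobase. In DNMT3B KO cells NOTUM led at 7.12 ± 0.594 CPM per kilobase (SD, n = 3), followed by ZNRF3 at 4.57, AXIN2 at 2.80, NKD1 at 1.35, SP5 at 0.947, RNF43 at 0.556, LRIG1 at 0.0414 and PROM1 at 0.0167, with no overlap between successive genes. These values divide by the length of all annotated exons of a gene, which for NKD1 comes to 17359 bases, so a gene with long exons that these cells do not use is understated.

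Promoter sequences from RefSeq (GRCh38.p14) were matched for 4 of the 10 members, RNF43, LRIG1, PROM1 and SP5, which between them have 11 annotated starts. They are shown because the first 3 of these genes fell and SP5 rose, and because DNMT3B methylates DNA at CpG dinucleotides. DNA methylation was not measured in these libraries. For RNF43 and LRIG1, the bases before the outermost start that lie outside every annotated exon of the gene are printed with CpGs in capitals. For SP5, the 250 bases before the start are printed with TCF/LEF cores in capitals. They come from chr17:58417596-58417784 (minus strand), chr3:66501264-66501371 (minus strand) and chr2:170715087-170715336 (plus strand).
RNF43: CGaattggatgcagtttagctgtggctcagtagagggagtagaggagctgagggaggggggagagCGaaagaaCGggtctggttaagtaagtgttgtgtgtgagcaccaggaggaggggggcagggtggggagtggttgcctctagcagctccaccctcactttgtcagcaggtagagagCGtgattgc
LRIG1: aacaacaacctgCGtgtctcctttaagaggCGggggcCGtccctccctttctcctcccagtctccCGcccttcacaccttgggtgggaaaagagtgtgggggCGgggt
SP5: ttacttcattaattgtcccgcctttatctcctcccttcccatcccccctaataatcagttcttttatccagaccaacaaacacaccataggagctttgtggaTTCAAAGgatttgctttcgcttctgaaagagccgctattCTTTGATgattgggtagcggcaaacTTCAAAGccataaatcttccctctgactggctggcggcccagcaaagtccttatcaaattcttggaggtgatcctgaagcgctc

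Over windows of 300 bases (250 before to 50 after a start), the outermost RNF43 start had 5 CpGs (percentile 33.7 of the 35116 windows in the table, whose median was 14). The second RNF43 start had 0 CpGs. The outermost LRIG1 start had 27 CpGs (percentile 73.8) and the SP5 start 17 (percentile 55.5). The 3 outer starts of PROM1, which lie in annotated exons of the gene and are not printed, had 18 to 32 CpGs. The inner start of PROM1 had 6 CpGs (percentile 36.8). Of the other LRIG1 starts, the innermost had 10 CpGs (percentile 45.3) and the rest 35 and 29. The members that fell thus had CpG-poor and CpG-rich starts among them. The TCF/LEF core was searched as the bases CTTTG followed by A or T at each of the next positions up to 7 bases in all, on both strands. The SP5 window held 3 matches, beginning 148, 109 and 84 bases before the start. A match was found in 13.8% of all windows, and among the windows of RNF43, LRIG1 and PROM1 in 1, at an inner start of PROM1. A match is a run of letters, and no match says only that these letters are not in the window.

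The genes beside the members were examined to see whether their surroundings changed with them. Of 20 flanking genes, the nearest tested gene on each side of each member, 3 rose, 4 fell and 13 did not pass the test, beside 28.1% called among all tested genes. The genes around PROM1 rose. FGFBP1, which encodes a carrier of fibroblast growth factors and ends 24.3 kb from PROM1, rose 30.8-fold from 9.84 ± 3.33 to 304 ± 18.7 CPM (SD, n = 3), which is a log2 fold change of 4.94 ± 0.24 (SE; adjusted p = 6.1e-06 from edgeR). FGFBP2, a related gene that overlaps the annotated end of PROM1 on the same strand, rose from 0.0720 ± 0.0648 to 1.02 ± 0.178 CPM. It passed the filter through its DNMT3B KO libraries alone, so a call could only be a rise. TAPT1, 76.1 kb away on the other side, rose from 17.1 ± 2.79 to 30.1 ± 4.28 CPM (SD, n = 3).

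Of the 4 genes flanking LRIG1 and RNF43, 1 passed the test. Genes that overlap a member are given beside them. MAGI1 and KBTBD8, which lie 340 and 497 kb from LRIG1, had log2 fold changes of 0.13 and 0.27 (adjusted p = 0.34 and 0.50). SLC25A26, which overlaps LRIG1 on the opposite strand, fell by 0.50 on the log2 scale. Beside RNF43, the elongation factor gene SUPT4H1, 0.583 kb away, fell by 0.43 on the log2 scale (SE 0.11, adjusted p = 0.020), a call lost without DNMT3B KO replicate 1 or 3, and MTMR4 had a log2 fold change of 0.05 (adjusted p = 0.71). AC004687.2, a locus annotated across RNF43 and most of SUPT4H1 on the same strand, fell from 1.26 ± 0.163 to 0.565 ± 0.212 CPM. Counts in the parts it shares with RNF43 or SUPT4H1 are uncertain. It lost its call when replicate 1 or 3 of either line was left out and with the replicate block (adjusted p = 0.053). AC007405.1, a noncoding RNA locus on the opposite strand of SP5, was at 0.231 ± 0.0585 and 0.580 ± 0.390 CPM (SD, n = 3), with an adjusted p of 0.0946 from edgeR. The other flanking genes called were CEP112, 73.9 kb from AXIN2 (log2 fold change 0.69), and BRD7, 179 kb from NKD1 (-0.87). PYCR1, 10.1 kb from NOTUM (-0.41), and IGF2, 110 kb from the silent ASCL2 (-0.81), were also called. The calls of PYCR1 and IGF2 depended on HCT116 replicate 1 and on each DNMT3B KO library, and were lost when any 1 of these was left out, that of PYCR1 also with the replicate block (adjusted p = 0.052).

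**Figure D4:**
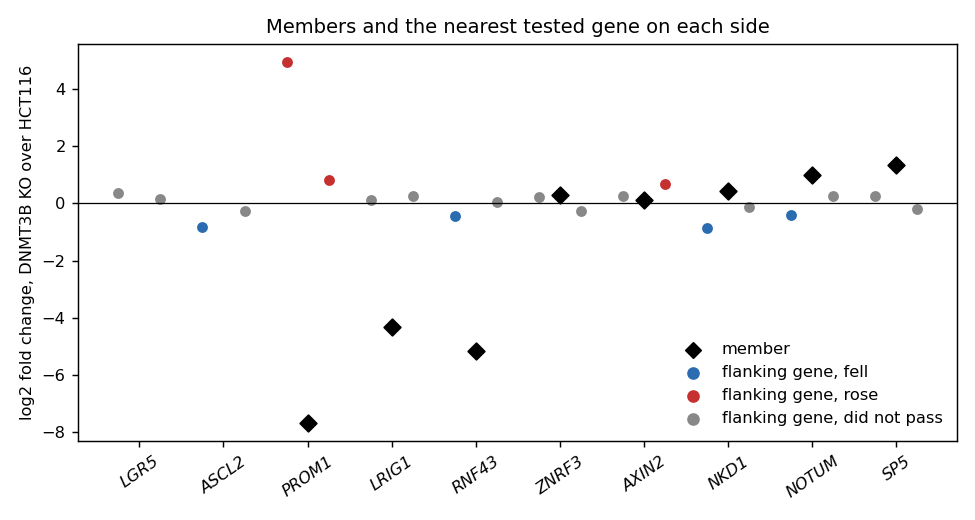
Log2 fold change of DNMT3B KO over HCT116 for the 8 tested members (black diamonds) and for the nearest tested gene on the lower (left) and higher (right) coordinate side of all 10 members, coloured by call. FGFBP1 beside PROM1 stands at 4.94, opposite to PROM1 at -7.68, and the other flanking genes lie between -0.87 and 0.82.

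The rest of the WNT pathway was described by 105 other genes in 8 lists ordered by role. Of these, 84 were tested, 12 rose, 16 fell and 56 did not pass, with a median log2 fold change of -0.01. Among all tested genes 12.9% rose and 15.1% fell. Neither these counts nor those of the single lists below were tested against those shares. With upper-quartile scaling 16 pathway genes rose and 14 fell, and without one library at a time between 5 and 21 rose. Among 13 tested WNT ligands, 1 rose and 3 fell. WNT16 fell 15.3-fold, from 178 ± 29.9 to 11.6 ± 1.18 CPM (SD, n = 3; adjusted p = 2.1e-06 from edgeR). WNT3A, a ligand of the β-catenin branch, had 555 counts over the HCT116 libraries and 0 in the knockout, at least 67.1-fold lower against 3 counts per library. It passed the filter on low counts through its HCT116 libraries alone, so a call could only be a fall. WNT9A fell 1.63-fold, a call lost when HCT116 replicate 1, DNMT3B KO replicate 1 or DNMT3B KO replicate 3 was left out, and WNT7B rose 1.56-fold from 15.7 ± 1.42 CPM. WLS, which carries WNT ligands to the cell surface, rose 1.37-fold, a call lost without HCT116 replicate 1 or any 1 of the DNMT3B KO replicates.

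Among 15 tested receptors and co-receptors, the Frizzled genes FZD1 and FZD6 rose 1.79-fold and 1.37-fold, and FZD8 fell. The call of FZD6 was lost in the absence of HCT116 replicate 1 or of replicate 1 or 2 of DNMT3B KO. FZD8, named after its values were seen, had 39 counts in HCT116 and 0 in the knockout, at least 4.68-fold lower. It passed the filter through its HCT116 libraries alone, so a call could only be a fall. The Frizzled receptors are the proteins that RNF43 and ZNRF3 remove. Of 4 tested R-spondins and their receptors, 2 rose. RSPO4 rose from 1.10 ± 0.502 to 2.80 ± 0.604 CPM, a call lost without HCT116 replicate 1 or any 1 of the DNMT3B KO replicates, and LGR6, named after its values were seen, reached 0.381 CPM from 0.0846 and lost its call without DNMT3B KO replicate 1. LGR6 passed the filter through its DNMT3B KO libraries alone, so a call could only be a rise. LGR4, the broadly expressed relative of LGR5, also named after its values were seen, was at 12.5 ± 4.29 and 16.8 ± 2.11 CPM (SD, n = 3), which is a log2 fold change of 0.43 (adjusted p = 0.21 from edgeR).

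Of 18 other WNT inhibitor genes, 8 were tested, 2 rose and 1 fell. DKK1, a secreted inhibitor that binds LRP co-receptors and is itself a WNT target, rose 2.30-fold, from 282 ± 23.7 to 649 ± 64.7 CPM (SD, n = 3), which is a log2 fold change of 1.20 ± 0.11 (SE; adjusted p = 0.00018 from edgeR). Its direction was that of NOTUM and SP5, while AXIN2 did not pass the test. Of 10 other WNT target genes, given below, 5 fell and 1 rose. TRABD2A, which encodes a protease that cleaves WNT ligands, fell 2.61-fold to 1.51 ± 0.0678 CPM. SOSTDC1, named after its values were seen, reached 0.204 CPM, and its call was lost without any 1 library other than HCT116 replicate 2, with DESeq2 (adjusted p = 0.1), with low genes kept in (0.058) and under the replicate block (0.061). SOSTDC1 passed the filter through its DNMT3B KO libraries alone, so a call could only be a rise. SFRP2, SFRP4, SFRP5, WIF1 and APCDD1 had 0 counts in all libraries, also named after their values were seen.

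The destruction complex and other cytoplasmic transducers were all tested, and 2 of 17 rose and 2 fell. The changes were small for the kinase CSNK1A1, which fell 1.36-fold, for the tankyrase TNKS2, which fell 1.22-fold, and for the Dishevelled gene DVL2, which rose 1.39-fold. APC2 rose 2.28-fold to 4.40 ± 0.737 CPM. The calls of APC2 and TNKS2 were lost without any 1 of the DNMT3B KO replicates, that of APC2 also without HCT116 replicate 2 and that of TNKS2 also without HCT116 replicate 1 or 3. At 20000000 counts per library both calls were also lost (adjusted p = 0.053 for APC2 and 0.096 for TNKS2 from edgeR), and that of TNKS2 was lost with upper-quartile scaling (0.089), with low genes kept in (0.081) and under the replicate block (0.06). CTNNB1, the β-catenin gene, named after its values were seen, was at 431 ± 24.7 CPM in the parental and 511 ± 21.3 CPM in the knockout line (SD, n = 3), a log2 fold change of 0.25 (adjusted p = 0.079 from edgeR).

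Among 15 tested TCF factors and nuclear cofactors, 1 rose and 4 fell. TCF7L2, the main TCF factor of the intestine, fell 1.66-fold, from 186 ± 36.4 to 112 ± 9.95 CPM (SD, n = 3; adjusted p = 0.0075 from edgeR). The corepressor genes TLE1 and CTBP2 fell 1.49-fold and 1.41-fold, and CTNNBIP1, an inhibitor of β-catenin, 1.56-fold. The call of CTBP2 was lost without DNMT3B KO replicate 1 or 3, and that of CTNNBIP1 when replicate 1 or 2 of HCT116 or replicate 2 or 3 of DNMT3B KO was left out. CTNNBIP1 also lost its call with upper-quartile scaling (adjusted p = 0.072) and with the replicate block (0.083). PYGO1, named after its values were seen, was the gene that rose. Of the 6 omissions of a library, its call held in that of HCT116 replicate 2, and it was also lost among protein-coding genes only (adjusted p = 0.054) and at 20000000 counts per library (0.094).

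Of 10 other WNT target genes, 5 fell and 1 rose. CD44, a hyaluronan receptor gene, fell 3.11-fold from 1053 ± 237 to 338 ± 23.4 CPM (SD, n = 3; adjusted p = 0.00024 from edgeR). MYC fell 1.57-fold, from 467 ± 39.2 to 298 ± 12.1 CPM (adjusted p = 0.0020). MMP7, a matrix protease gene, went from 347 counts to 0 and was at least 41.3-fold lower. It passed the filter through its HCT116 libraries alone, so a call could only be a fall. BAMBI and ETS2, named after their values were seen, also fell, and BAMBI lost its call without DNMT3B KO replicate 1 or 2. TNFRSF19, a receptor gene expressed in crypt stem cells, rose 5.33-fold, from 0.613 ± 0.104 to 3.29 ± 0.656 CPM (adjusted p = 0.00043).

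Other stem and progenitor markers changed in both directions. Of 15 listed, 11 were tested, 4 rose and 1 fell. OLFM4 and HOPX, named after their values were seen, had 0 counts in all libraries. TERT, the telomerase catalytic subunit gene, rose 4.47-fold from 2.67 ± 0.283 to 11.9 ± 4.50 CPM (SD, n = 3), MEX3A 2.31-fold and the transcription factor gene SOX4 1.91-fold. BMI1, named after its values were seen, also rose and lost its call without DNMT3B KO replicate 2. The adhesion molecule gene ALCAM fell 2.98-fold, from 118 ± 15.8 to 39.5 ± 4.15 CPM. Of 19 markers of differentiated intestinal cells, 5 were tested. KRT20 fell 4.18-fold from 1.62 ± 0.549 CPM, VIL1 rose to 1.05 ± 0.694 CPM from 0.0841 ± 0.0190, and CA2 rose 1.30-fold, a call lost without DNMT3B KO replicate 3. VIL1 passed the filter through its DNMT3B KO libraries alone, so a call could only be a rise. The intestinal transcription factor gene CDX2, named after its values were seen, was at 22.4 and 20.3 CPM (adjusted p = 0.325).

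**Figure D5:**
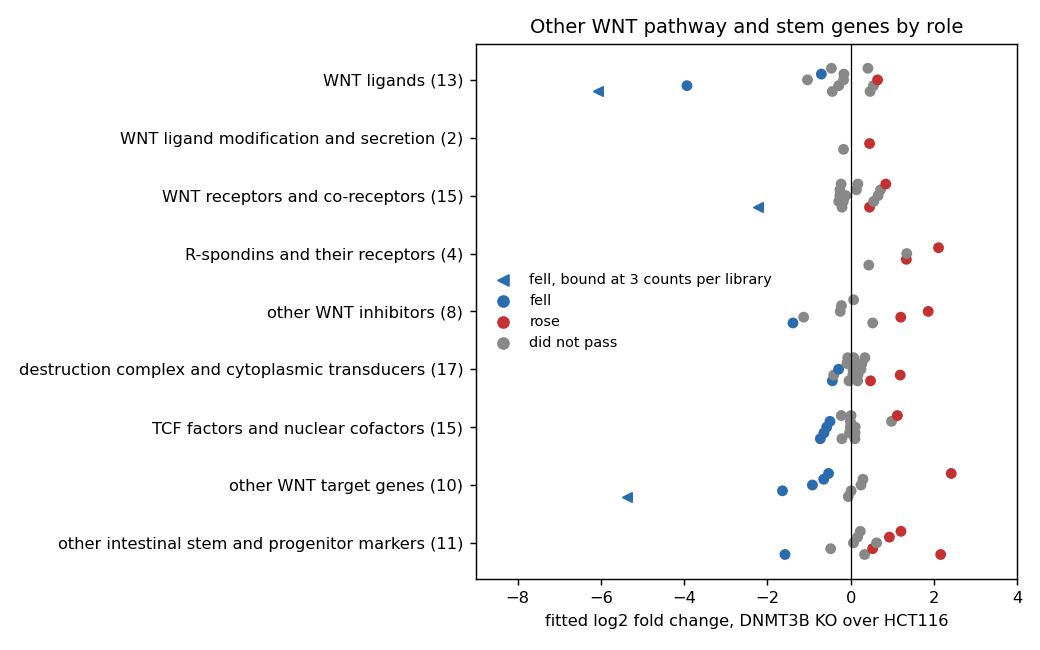
Fitted log2 fold change of DNMT3B KO over HCT116 for the tested genes of 8 WNT pathway lists and of the other stem and progenitor markers, with the number tested in parentheses and colour by call. Triangles mark WNT3A, FZD8 and MMP7, which had 0 counts in DNMT3B KO cells and are drawn at the smallest fall that 3 counts per library allow. WNT16 lies at -3.93 and CD44 at -1.64, and TNFRSF19 and TERT lie at 2.41 and 2.16.

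Markers of fibroblasts and endothelial cells were summed in each library. Their level was 9.98 to 19.9 CPM (HCT116) and 15.4 to 18.0 CPM (DNMT3B KO) for 7 fibroblast markers and 0.516 to 1.26 and 1.01 to 1.59 CPM for 3 endothelial markers. COL1A1, a collagen gene named after its values were seen, made up most of the fibroblast sum, at 15.3 ± 5.04 CPM in HCT116 and 13.7 ± 1.77 CPM in the knockout (SD, n = 3), with an adjusted p of 0.67 from edgeR. The receptor gene PDGFRB rose 7.73-fold, from 0.314 ± 0.112 to 2.45 ± 0.309 CPM (SD, n = 3; adjusted p = 0.00043 from edgeR). LUM, named after its values were seen, had 0 counts in all libraries. The blood cell marker PTPRC, named after its values were seen, rose to 0.274 CPM. It passed the filter through its DNMT3B KO libraries alone, so a call could only be a rise.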

How the data were processed

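RNA-seq was performed on 3 libraries of HCT116 and 3 of DNMT3B KO cells with a stranded mRNA kit. The authors ran nf-core/rnaseq, with STAR for alignment of read pairs to hg38 and Salmon for counting in an Ensembl/GENCODE annotation, and the deposited tables hold, for each library, estimated counts scaled for gene length. Library totals were 55436267 to 68274783. Symbols came from the deposited tables and positions and exon lengths from GENCODE release 44 (same build, 60437 of 60666 gene IDs matched).

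The estimated counts were rounded and genes with low counts removed with filterByExpr. Libraries were scaled by TMM. Genotype was the only factor in the quasi-likelihood fit (edgeR 4.0.16, R 4.3.3), whose F test was run over 16959 genes with Benjamini-Hochberg adjustment. The standard error is the log2 fold change divided by the square root of F. Fits were tested on simulated counts. Alternatives changed the scaling, the test (DESeq2 1.42.0), the filter, the gene types, the depth (20000000 counts per library) and added a replicate block or omitted single libraries. The members and lists were chosen with earlier results of these data known. Named genes are all members, DNMT3B, up to 4 called genes per list with the smallest adjusted p, at least 1 CPM in one line and no overlap of libraries, and the nearest tested gene on each side of a member, with the flanking genes that did not pass partly summarised. Genes named otherwise are said to be named after their values were seen. The immune and blood marker list is not reported here as a whole.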

Additional observations from a re-analysis of the deposited data

How the results depend on the processing

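Across 13 alternatives, 3 members fell in each and 2 or 3 rose. The member calls that depended on a setting were ZNRF3 and NKD1, each called in 2 alternatives, and the log2 fold change of AXIN2, which ranged from -0.032 to 0.264 when a library was left out, was reversed without DNMT3B KO replicate 2. The number of WNT pathway genes that rose, 12, ranged from 5 to 21 when a library was left out (5 without DNMT3B KO replicate 1, 7 without HCT116 replicate 1 or DNMT3B KO replicate 3, and 21 without HCT116 replicate 2), and the number of all tested genes that rose, 2196, from 1283 to 2868. Upper-quartile scaling took the share of calls that were higher from 46.1% to 57.6% among all tested genes (2834 rose and 2090 fell). The cause was not tested. Same-numbered libraries did not deviate together (correlations of 0.064, -0.01 and 0.122 for numbers 1, 2 and 3), and 3 of the 6 libraries correlated best with their own number, so the numbers were not taken as pairs. With the replicate block, 2 members rose, 3 fell, and 1890 tested genes rose. Of 53 called genes examined besides the members, 18 lost their call without at least 1 library. Levels under the 3 counts that a count of 0 allows limit LGR5 and ASCL2.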
